A study of Jaculus jaculus with 29 samples.

Results

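This is an account of 35 genes that encode receptor subunits for GABA and glutamate, measured by RNA sequencing in the supraoptic nucleus of a desert rodent, the lesser Egyptian jerboa (Jaculus jaculus). The genes were chosen by name alone. Each carries, in the authors' deposited table for Dehydrated against Control, the symbol of a GABA-A, GABA-B, AMPA, kainate, NMDA or metabotropic glutamate receptor gene. The count table holds 29170 genes, the authors named 9699 of them, and 35 met the rule. They are 11 GABA-A subunits (4 alpha, 2 beta, 3 gamma, delta and theta), 1 GABA-B subunit, 4 AMPA, 5 kainate and 6 NMDA receptor subunits and 8 metabotropic glutamate receptors. RefSeq, on the same assembly, names Gabra5, Gabrb1, Gabbr2 and Grin2b among genes that the authors left without a symbol. These fall outside the 35, and their values are given only beside those of the 35.

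The samples were small punches of the supraoptic nucleus, cut with a 1 mm core from frozen sections of 100 µm, and polyadenylated RNA was sequenced. The 10 Control libraries come from animals that drank freely. Water was restricted for 11 days before the 10 Dehydrated libraries were taken. For the 9 Rehydrated libraries, restriction lasted 7 days and was followed by 3 days with water. All were housed singly at 25 °C under 12 hours of light with dry food, and the labels name no genotype, strain, age or agent. By the sex labels the groups held 5 females and 5 males, 6 and 4, and 4 and 5. Nothing in the labels says outright that each library is a separate animal. The p-values below treat it as one.

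GABA-A receptors are chloride channels built from alpha, beta and gamma or delta subunits, and GABA-B receptors are G protein-coupled pairs of the products of Gabbr1 and Gabbr2. AMPA, kainate and NMDA receptors are cation channels opened by glutamate, while metabotropic glutamate receptors act through G proteins. The magnocellular neurons of the supraoptic nucleus, which release vasopressin and oxytocin, receive dense GABA and glutamate input, and this input is known to shape their firing during water loss.

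Total counts ran from 10797577 to 18856620 per library, and 17558 genes passed a filter on low counts, all 35 receptor genes among them. Levels are given as CPM, counts divided by the TMM-scaled library total. Between genes they are compared only as CPM per kilobase of annotated exon. The tissue carried its defining transcripts, at levels that varied widely. Avp, the vasopressin precursor, ran from 200.7 to 5179 CPM over the libraries and Oxt, the oxytocin precursor, from 159 to 1975 CPM. Rehydrated M08 had the lowest summed level of magnocellular markers (2252 CPM) and the highest of cortex and forebrain neuron markers (105.5 CPM). How much of each punch was supraoptic nucleus was not measured. One library, Control M01, stood apart from all others in these genes. The 35 genes took 0.256% of its counts, against 0.437% to 0.488% in the Dehydrated group and 0.410% to 0.504% in the Rehydrated group, with a Control median of 0.466%. Many results that rest on Control libraries are therefore given with and without it. Where only 1 value is given, it includes Control M01 unless the text says otherwise. In punches of whole tissue, fewer cells of a kind and less RNA per cell cannot be told apart.

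The highest of the 35 genes per kilobase was Gabbr1 (ENSJJAG00000010670, mJacJac1 chromosome 8, 1396263 to 1431066), which encodes the GABA-B subunit that binds GABA. Its Control libraries ran from 166 through a median of 247 to 284 CPM per kilobase. In CPM it lay at 663, 983 and 1132 (lowest, median and highest Control library), at 898, 993 and 1082 in Dehydrated and at 907, 959 and 1089 in Rehydrated. These ranges overlap, and the 3 medians lie within the spread of any 1 group.

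Among the GABA-A alpha subunits Gabra3 had a Control median of 51.9 CPM per kilobase, Gabra2 of 42.8 and Gabra4 of 8.34. Of the beta subunits, Gabrb2 (ENSJJAG00000021760, chromosome 6, 17563399 to 17762811) lay at a Control median of 60.02 CPM per kilobase. It ran from 13.2 through 164 to 189 CPM in Control, from 142 through 164 to 189 in Dehydrated and from 140.5 through 174 to 238 in Rehydrated. The low Control value is that of Control M01. The next Control library was at 104 CPM, and the 3 groups overlapped.

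GABA-A genes lie in groups on the chromosomes, a feature the choice by name did not use. A stretch of 1261 kb on chromosome 11 (18470948 to 19731817) held Gabrb1, Gabra4, Gabra2 and Gabrg1, where Gabra2 and Gabrg1 had similar Control medians of 42.8 and 43.6 CPM per kilobase and Gabra4 lay lower. On chromosome 3 Gabrg3, with a Control median of 10.2 CPM per kilobase, lay beside Gabra5. On the X chromosome (149964237 to 150542968) Gabra3 and Gabrq, the theta subunit, lay beside Gabre.

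Gabrq (ENSJJAG00000022087) was the most variable of the well-expressed GABA-A genes. It ran from 23.9 through 65.0 to 106 CPM in Control, from 56.4 through 83.3 to 99.8 in Dehydrated and from 48.99 through 65.6 to 128 in Rehydrated. Each group spanned most of the range of the others. Gabrd (ENSJJAG00000018720, chromosome 5, 37588450 to 37603486), the delta subunit of receptors outside synapses, was near the lower end of the 35 genes, at a Control median of 0.70 CPM per kilobase and at 7 to 32 counts per Control library.

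**Figure D1:**
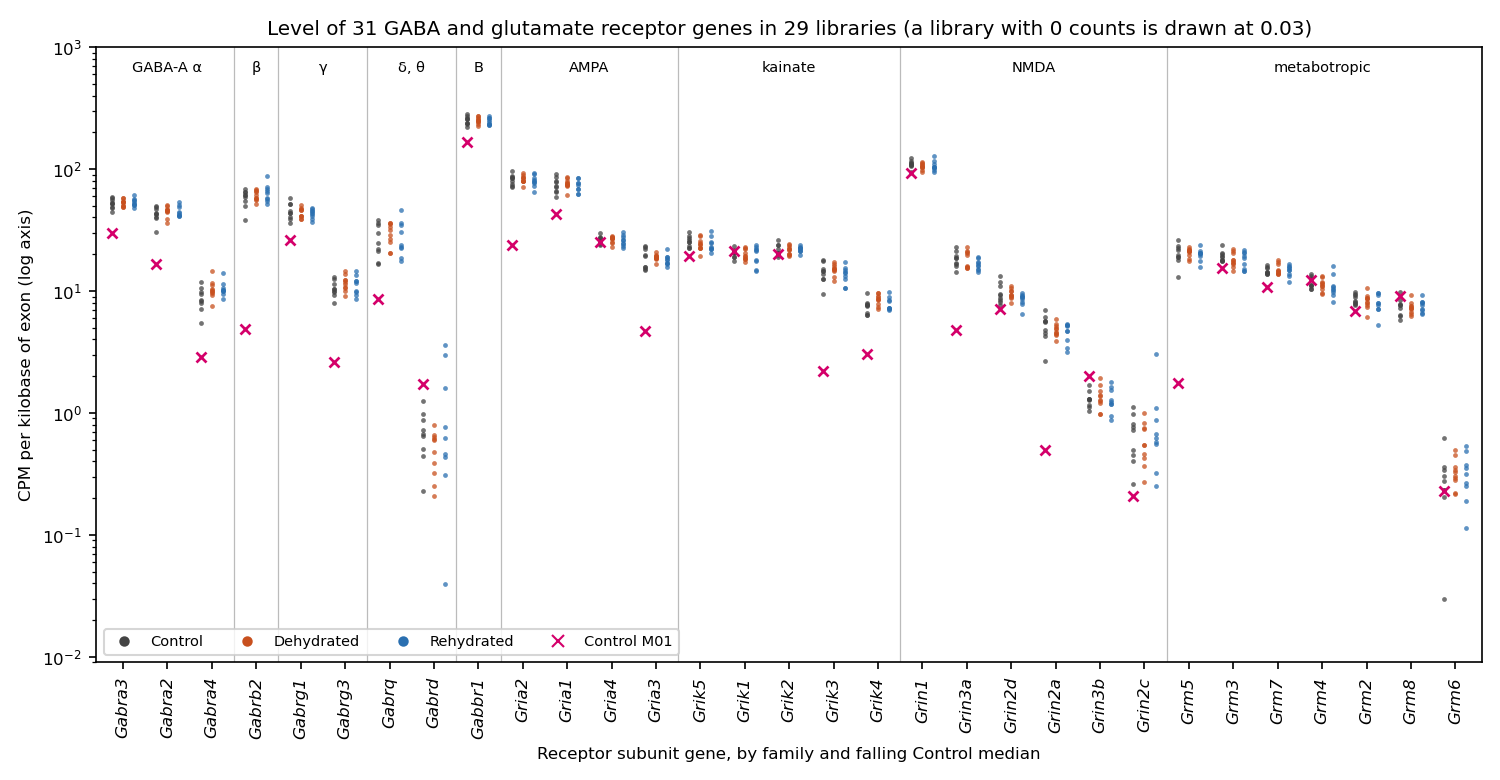
Level of 31 of the 35 genes in CPM per kilobase of exon (log axis), grouped by family and ordered by Control median. Each point is 1 library and the cross is Control M01, which lies below the other Control libraries for 23 of the 31 genes.

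Of the AMPA receptor subunits, Gria2 (ENSJJAG00000014639, chromosome 12, 103699745 to 103829172), which makes the channel poorly permeable to calcium, and Gria1 were the highest, at Control medians of 81.4 and 72.0 CPM per kilobase. Gria4 lay at 25.9 and Gria3 at 17.6. Gria2 ran from 96.1 through 327 to 390 CPM in Control, from 285 through 329 to 371 in Dehydrated and from 262 through 323 to 373 in Rehydrated. Without Control M01 its lowest Control library was at 284 CPM, so that the 3 groups covered nearly the same range.

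The kainate receptor genes lay closer together. Grik5 (ENSJJAG00000015626, chromosome 14, 2644631 to 2751767), which forms channels only with another kainate subunit, had a Control median of 25.3 CPM per kilobase, Grik1 of 20.8, Grik2 of 20.6, Grik3 of 14.1 and Grik4 of 7.55. Grik5 ran from 72.5 through 94.99 to 115 CPM in Control, from 72.2 through 90.6 to 108 in Dehydrated and from 76.7 through 86.3 to 117 in Rehydrated. Grik5 lay above Gabrq, the next gene in the Control order, in 10 of 29 libraries: 6 Control, 1 Dehydrated and 3 Rehydrated. Grik1 lay above Grik2 in 10 of 29 as well: 5 Control, 1 Dehydrated and 4 Rehydrated. Neighbours at this level thus did not keep their order, and whether the order differs between groups was not tested.

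Grin1 (ENSJJAG00000021930, chromosome 1, 151705512 to 151737738), the obligatory NMDA receptor subunit, had a Control median of 109 CPM per kilobase and exceeded each other NMDA subunit in that group. It ran from 363 through 426 to 484 CPM in Control, from 372 through 412 to 445 in Dehydrated and from 373 through 410 to 501 in Rehydrated. Grin3a, a subunit that lowers calcium flow, lay at 17.7, Grin2d at 9.03 and Grin2a at 5.15 CPM per kilobase. Grin3b and Grin2c were low, at 1.299 and 0.61. Grin3b shares 576 exon bases with Tmem259 on the opposite strand, and the counts were made with no strand option, so its level is uncertain.

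The metabotropic receptors lay between 19.3 CPM per kilobase for Grm5 and 0.26 for Grm6, the glutamate receptor of retinal bipolar cells. Grm5 (ENSJJAG00000024148, chromosome 3, 155165545 to 155672859), which couples to phospholipase C, ran from 7.23 through 79.2 to 107 CPM in Control, from 72.4 through 87.2 to 94.0 in Dehydrated and from 64.2 through 83.3 to 96.6 in Rehydrated. The next lowest Control library after Control M01 was at 53.1 CPM. Control medians were 18.5 CPM per kilobase for Grm3, 14.2 for Grm7, 11.7 for Grm4, 8.19 for Grm2 and 7.65 for Grm8. Grm6 had as few as 0 counts in a Control library and 28 counts at most in any library.

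Across the order of all 35 genes the highest Control median was 965 times the lowest. Of the 34 pairs of neighbours in that order, 3 kept their order in all 29 libraries and 4 in all 10 Control libraries. Grin1 over Gria2 and Grik4 over Grin2a were among the pairs that held everywhere. The coefficient of variation had a median over the 35 genes of 23.3% in Control, 10.1% in Dehydrated and 12.7% in Rehydrated, and was under 20% for 14, 30 and 29 of the genes. Without Control M01 the Control median was 13.6%, and 29 genes were under 20%. Grm7, Gria4, Grin1 and Gabbr1 were at or under 8.01% in the 9 other Controls, and Grm6, Gabrd, Grin2c and Gabrq, the first 3 of them with few counts, were the most variable there.

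The make-up of each receptor family was much the same in the 3 groups. It is given as a share of the family's summed CPM per kilobase, without Control M01, and with no test. Of the alpha subunits, Gabra3 held 19.7%, 19.03% and 18.3% in Control, Dehydrated and Rehydrated, and Gabra2 16.1%, 16.1% and 15.4%. Gabrb2 made up 54.9% ± 3.5 (SD, n = 9) of the beta subunits in Control, 54.1% ± 2.6 (n = 10) in Dehydrated and 56.0% ± 3.1 (n = 9) in Rehydrated. Every one of these group means lies within the range of single Control libraries.

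Among AMPA subunits Gria2 held 40.7% ± 1.7 in Control, 40.5% ± 2.4 in Dehydrated and 40.7% ± 2.2 in Rehydrated, and Gria1 36.8%, 37.2% and 36.95%. Of the GluN2 subunits, which set the kinetics of NMDA receptors, Grin2d was the largest at 46.6% ± 6.4, 44.7% ± 3.6 and 44.4% ± 4.0. Grin2b, one of the genes that the authors left unnamed, held 26.01%, 29.8% and 27.3%, and Grin2a 24.3%, 22.7% and 23.6%. The kainate family had no dominant member, with Grik5 at 28.6%, 27.1% and 27.7% and Grik4, the smallest, at 8.3%, 9.5% and 9.1%. Grm3 held 69.1% of the group II metabotropic receptors in Control and Grm7 42.8% of group III, against 68.3% and 44.6% in Dehydrated.

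**Figure D2:**
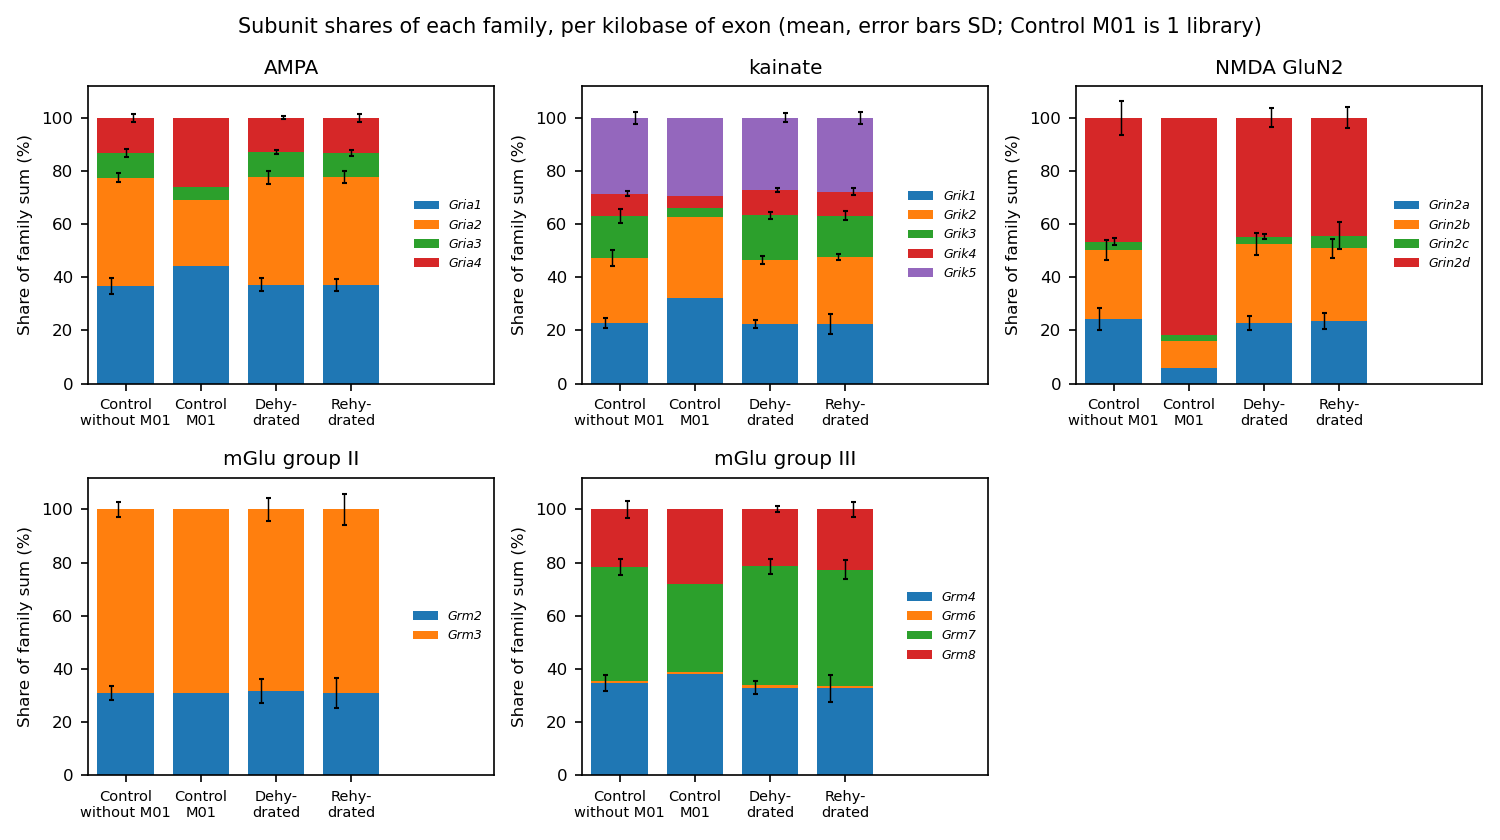
Share of each subunit of 5 receptor families in its family's summed CPM per kilobase (%), as mean with SD, for Control without M01 (9 libraries), Control M01 alone, Dehydrated (10) and Rehydrated (9). The 3 groups have nearly the same make-up, and Control M01 differs, with Grin2d at 81.7% of the GluN2 sum.

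Summed over the 11 GABA-A genes, the level was 538 ± 52.7 CPM per kilobase (SD, n = 9) in Control without M01, 563 ± 41.3 (n = 10) in Dehydrated and 582 ± 54.4 (n = 9) in Rehydrated. The 15 ionotropic glutamate receptor genes summed to 436 ± 28.6, 433 ± 18.02 and 424 ± 28.8 CPM per kilobase. The ratio of the first sum to the second was 1.24 ± 0.12, 1.302 ± 0.09 and 1.37 ± 0.08, and 1.203 ± 0.16 in Control with M01 included. Single libraries ran from 1.04 to 1.42 in Control without M01, from 1.17 to 1.46 in Dehydrated and from 1.24 to 1.495 in Rehydrated. The ranges overlap, and the ratio was put to no test. Among the libraries of its group, Rehydrated M05 was the lowest for 19 of the 35 genes. Rehydrated M08 was the highest for 13 and Dehydrated F04 the lowest for 12. The like counts over all genes tested were not made, so these need not be particular to receptor genes. Of all 29 libraries, the summed neuron markers were lowest in Rehydrated M05 (4999.6 CPM) and highest in Rehydrated M08 (6545 CPM). Rehydrated M05 also had the highest sum of oligodendrocyte markers (8104 CPM). The part of cell make-up was not tested.

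In Control M01, 27 of the 35 genes were below every other Control library, against 33.3% of all genes tested. For 23 of the 35 it was the lowest of all 29 libraries, and for 5014 of all 17558 genes tested. The 35 genes together summed to 737 CPM per kilobase there, and to between 1161 and 1439 in the other 9 Controls. The ratio of Control M01 to the median of the other Controls ran from 0.08 for Gabrb2 to 2.58 for Gabrd, with a median of 0.59 over the 35 genes and of 0.99 over all genes tested.

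Members of 1 family were not low alike. Among NMDA subunits, Grin2a was at 2.76 CPM against 14.8 or more in the other Controls, and Grin3a at 21.9 against 65.2 or more, while Grin1 was at 363 against 369 or more. Among kainate subunits, Grik3 was at 8.47 CPM against 36.3 or more, whereas Grik2 (81.9 CPM) and Grik1 (74.5 CPM) lay inside the range of the other Controls. Gria2 fell far below the others, at 96.1 CPM against 284 or more, and Gria4 lay inside their range at 127 CPM. As a result Gria2 made up 24.7% of the AMPA sum in this library. Gabrd and Grin3b lay above every other Control.

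Other measures moved with this library. The ratio to the other Controls fell with annotated exon length over all genes tested, from a median of 1.245 for genes of up to 2 kb, through 1.02 for 2 to 3 kb, 0.85 for 3 to 4 kb and 0.68 for 4 to 6 kb, to 0.55 for longer ones. Of the 35 genes, 34 were over 2 kb, against 54.7% of all genes tested. In the class of 2 to 3 kb the 9 receptor genes had a median ratio of 0.38, and in the class of 4 to 6 kb the 11 had 0.40. In the class of 3 to 4 kb, which held the most receptor genes (14), their median was 0.79, close to that of all genes of that length. The summed markers of neurons (9 of 9 measured) were not low, at 5620 CPM in Control M01 and 5156 to 6140 in the other Controls. The sum of 7 markers of cortex and forebrain neurons was the lowest of the Controls at 50.7 CPM (54.2 or more in the others), and so was that of 6 markers of oligodendrocyte precursors at 226 (309 or more). Highest of the Controls were the sum of 7 microglial markers, at 403 CPM against 99.8 to 168, and that of 5 ependymal markers, at 45.6 against 14.3 to 36.5. The part of length or of cell make-up in the low receptor levels was not tested.

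**Figure D3:**
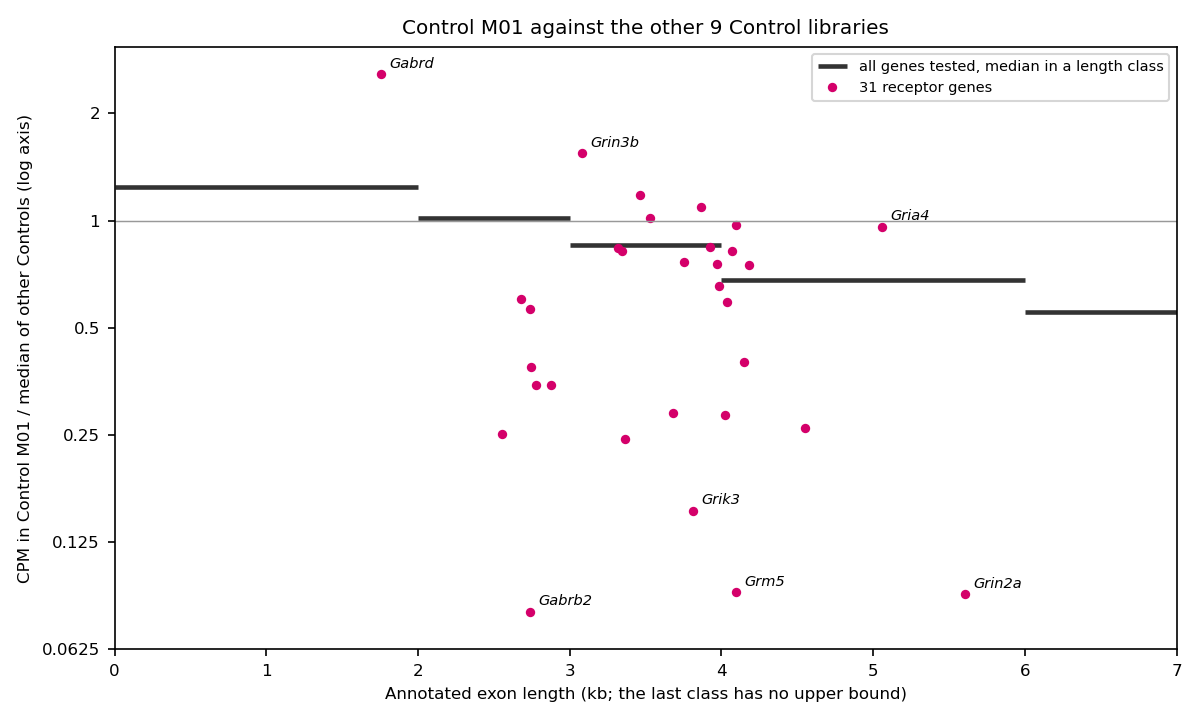
Ratio of CPM in Control M01 to the median of the other 9 Control libraries (log axis) against annotated exon length in kilobases, for 31 of the 35 genes (points) and as the median of all genes tested in 5 length classes (horizontal lines). Most receptor genes lie below the line of their class, down to 0.08 for Gabrb2.

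The first comparison of the design asked what differs after 11 days of water restriction. No receptor gene passed the test: 0 of 35 were called by edgeR's quasi-likelihood test at an adjusted p under 0.05, where 0.125% of all genes were (22 of 17558). DESeq2 called 0 of the 35 and 0.222% of all genes. At an unadjusted p under 0.05 there were 2 of 35 with either tool, against 6.37% of all genes in edgeR. No receptor gene had groups whose CPM did not overlap, and neither did any other gene tested (0%). The level was higher in Dehydrated for 25 of the 35 genes, with a median log2 difference of 0.09 against -0.003 over all genes. Without Control M01 it was higher for 22, with a median of 0.02. With 2 surrogate variables in the model it was higher for 13, with a median of -0.0088.

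The intervals bound how much these genes can have differed. The 95% interval of the difference lay inside 1.25-fold either way for 17 of the 35 genes, inside 1.5-fold for 28 and inside 2-fold for 34. Of all genes tested, the intervals of 42.0%, 75.2% and 91.7% lay inside these bounds, against 48.6%, 80% and 97.1% of the 35. Without Control M01 the intervals of 26, 32 and 34 of the 35 genes did, and those of 54.4%, 78.0% and 92.5% of all genes. The exception at 2-fold was Gabrd, with and without Control M01. Its log2 difference was -0.68 with an SE of 0.47, and -0.50 without Control M01. Its CPM ran from 0.40 through 1.23 to 3.05 in Control, where Control M01 was the highest, and from 0.37 through 0.95 to 1.40 in Dehydrated.

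By family, all 4 GABA-A alpha genes and all 4 AMPA genes had a higher mean level in Dehydrated, with median log2 differences of 0.16 and 0.10. Without Control M01 the medians were 0.07 and 0.02. Kainate genes were higher in 2 of 5 and metabotropic genes in 4 of 8, with and without Control M01. NMDA genes were higher in 4 of 6, with a median of 0.009, and without Control M01 in 2 of 6, with a median of -0.05. None of these passed the test, and the members of a family share their libraries.

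The smallest p belonged to Gabra4 (ENSJJAG00000014818, chromosome 11, 18937258 to 19013147), an alpha subunit that joins delta in receptors outside synapses. It ran from 8.28 through 23.96 to 33.8 CPM in Control and from 21.7 through 28.9 to 41.8 in Dehydrated. The Dehydrated library was above the Control median in 9 of 10 cases, yet the 2 groups overlapped over most of their range. On the log2 scale the groups differed by 0.35 (SE 0.15, unadjusted p 0.0303), and after Benjamini-Hochberg adjustment edgeR's quasi-likelihood p was 0.721. Without Control M01 the log2 difference was 0.25 (edgeR adjusted p 0.841), and over 46 alternative fits the adjusted p of Gabra4 ran from 0.344 to 1.00. Among F-named libraries alone the difference was 0.02 and among M-named libraries alone, which include Control M01, it was 0.71. A test of the difference between the sexes of the label, with Control M01 among the males, gave 0.58 (SE 0.30, edgeR adjusted p 0.817).

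Grik4 (ENSJJAG00000022344, chromosome 3, 93151780 to 93617009), a kainate subunit that needs a partner to form a channel, came next. It ran from 12.7 through 31.3 to 39.97 CPM in Control and from 29.4 through 35.5 to 39.8 in Dehydrated. Of the 10 Dehydrated values, 8 exceeded the Control median. The log2 difference was 0.26 (SE 0.12, edgeR adjusted p 0.733), and 0.18 without Control M01. Gabrg3 followed, at 6.66, 26.02 and 33.4 CPM in Control and 23.03, 29.5 and 37.2 in Dehydrated, a log2 difference of 0.25 (SE 0.16, edgeR adjusted p 0.798). Without Control M01 it was 0.14. For all 3 genes the lowest Control value was that of Control M01.

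The 4 genes with the smallest SE gave the tightest bounds. The log2 difference of Grin1 was -0.04 (95% interval -0.15 to 0.07), that of Gabbr1 0.05 (-0.09 to 0.18), that of Gria4 0.01 (-0.10 to 0.12) and that of Grik2 -0.003 (-0.12 to 0.12). For Gabrb2, Grm5 and Grin2a, which were lowest in Control M01, the SE fell from 0.22, 0.21 and 0.22 with all libraries to 0.09, 0.09 and 0.12 without it, and the differences became 0.08, 0.04 and -0.08.

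**Figure D4:**
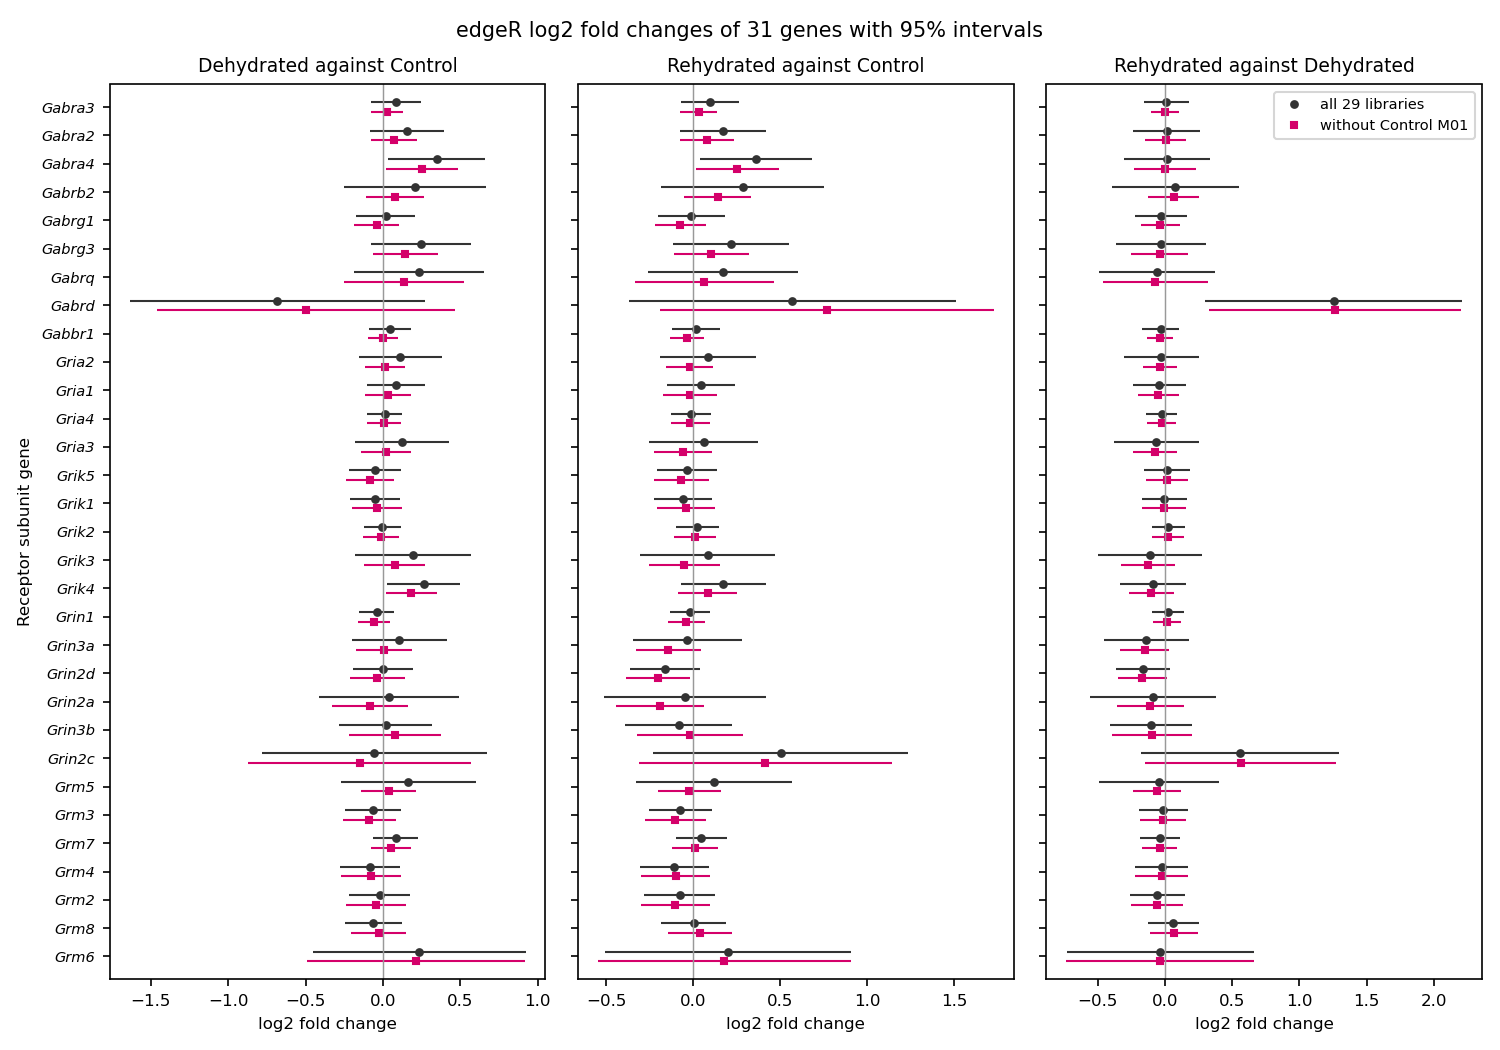
Log2 fold changes of 31 of the 35 genes with 95% intervals from edgeR in the 3 treatment comparisons, with all 29 libraries (circles) and without Control M01 (squares). No gene had an adjusted p under 0.05, and leaving out Control M01 narrows many of the intervals.

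The second comparison set Rehydrated against Control and asked how far levels are from those of watered animals after 3 days of drinking. None of the 35 genes was called by edgeR's quasi-likelihood test, and neither was any of all genes (0%). DESeq2 called 0 of the 35 and 0.103% of all genes (18 of 17558). At an unadjusted p under 0.05 there were 2 of 35 in each tool, against 7.48% of all genes in edgeR, and no receptor gene or other gene (0%) had groups that did not overlap. The level was higher in Rehydrated for 23 of the 35 genes, with a median log2 difference of 0.06. Without Control M01 it was higher for 17, and the median was -0.02. The 95% interval lay inside 1.5-fold for 28 genes with all libraries and for 32 without Control M01. Of all genes tested it did so for 74.1% and 76.4%.

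Gabra4 again had the smallest p. Rehydrated libraries ran from 24.5 through 29.4 to 40.2 CPM, and all 9 were above the Control median of 23.96. The log2 difference was 0.36 (SE 0.16, edgeR adjusted p 0.625), and 0.25 without Control M01. This comparison and the first share their Control libraries, so the like values of Gabra4 in both are not independent.

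With all libraries only the NMDA family had a negative median log2 difference. The medians of the AMPA, kainate and metabotropic genes were 0.05, 0.02 and 0.02. All 4 alpha genes (median log2 difference 0.22) were higher in Rehydrated than in Control, and 1 of 6 NMDA genes was (-0.04). Without Control M01 the medians of the alpha and NMDA genes were 0.13 and -0.09, and the 4 AMPA genes were all lower, with a median of -0.02. Those of the kainate and metabotropic genes were then -0.04 and -0.006. None of these genes passed the test, and the difference between families was put to none.

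In the third comparison, Rehydrated against Dehydrated, the Control libraries enter the model through the sex term and the shared estimate of spread. Of the 35 genes 0 were called by edgeR's quasi-likelihood test, against 0.0228% of all genes (4 of 17558), and DESeq2 called 0, against 0.074% of all genes. There was 1 of 35 at an unadjusted p under 0.05 in each tool, against 3.88% of all genes in edgeR. No receptor gene had groups that did not overlap, and 0.0057% of all genes had. The level was higher in Rehydrated for 14 of 35 genes, with a median log2 difference of -0.02. The 95% interval lay inside 1.25-fold for 18 genes and inside 1.5-fold for 32, against 45.0% and 76.1% of all genes tested. Without Control M01, 13 genes were higher, and the intervals of 26 and 32 lay inside those bounds, against 53.4% and 77.9% of all genes. The smallest adjusted p of the 35 in edgeR was then 0.668.

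The gene with the small p was Gabrd, at a log2 difference of 1.254 (SE 0.47, unadjusted p 0.0119, edgeR adjusted p 1.00). It ran from 0.37 through 0.95 to 1.40 CPM in Dehydrated and from 0.07 through 1.1 to 6.27 in Rehydrated. The medians were close, and the difference in means came from Rehydrated F05 (6.27 CPM), M08 (5.21) and M05 (2.80), while the other 6 libraries lay at or below 1.34. Counts behind these values ran from 1 to 96 per Rehydrated library. Leaving out Rehydrated F05 gave a log2 difference of 0.67 and leaving out F06, the lowest, gave 1.42, and over 46 alternative fits the adjusted p of Gabrd ran from 0.479 to 1.00.

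Rehydrated F05 was also apart in Grin2c (ENSJJAG00000022967, chromosome 9, 124109634 to 124123536), a GluN2 subunit typical of cerebellum and thalamus. It was at 11.1 CPM there and at 0.93 to 4.03 CPM in the other 8 Rehydrated libraries. Dehydrated libraries ran from 1.00 through 2.00 to 3.66 CPM and Control libraries from 0.76 through 2.25 to 4.10. The log2 difference between Rehydrated and Dehydrated was 0.56 (SE 0.36, edgeR adjusted p 1.00), and 0.07 without Rehydrated F05. The sum of 5 markers of cerebellar granule cells was 85.7 CPM in Rehydrated F05, the 23rd highest of the 29 libraries, and the sum of 7 markers of cortex and forebrain neurons was 79.9 CPM, the 10th highest. Its sum of 5 ependymal markers was the highest of the 29 libraries at 62.4 CPM, and its sums for oligodendrocytes (1133 CPM) and their precursors (181 CPM) were the lowest. The part of this make-up in Gabrd and Grin2c was not tested.

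Grin2d (ENSJJAG00000003385, chromosome 14, 22147377 to 22210833) was second by p. It ran from 31.6 through 36.6 to 43.6 CPM in Dehydrated and from 25.6 through 35.2 to 37.96 in Rehydrated. The log2 difference was -0.16 (SE 0.10, edgeR adjusted p 1.00), and the groups overlapped.

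**Figure D5:**
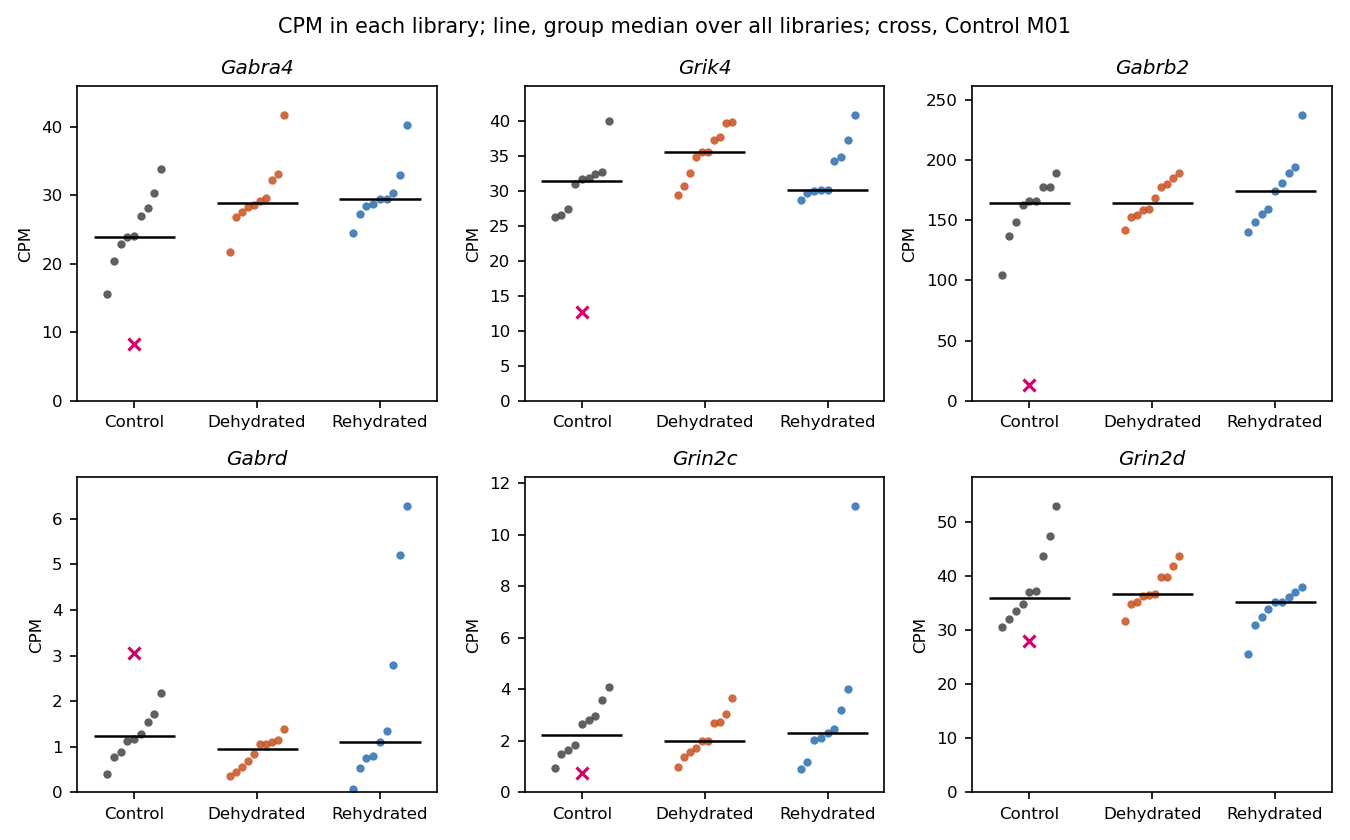
CPM (linear axis) in each library of 6 genes by treatment group, with the group median as a line and Control M01 as a cross. Gabra4 and Grik4 overlap between groups, Gabrb2 is low in Control M01 alone, Gabrd is high in 3 Rehydrated libraries and Grin2c in 1.

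Between male and female labels, with treatment in the model, 0 of 35 genes were called by edgeR's quasi-likelihood test, against 0.0342% of all genes (6 of 17558), and DESeq2 called 0, against 0.057% of all genes. None was at an unadjusted p under 0.05 in either tool, against 3.87% of all genes in edgeR. The 3 smallest p belonged to Grin3b, Grik1 and Grik5, at log2 differences of 0.21, -0.10 and -0.07 with SEs of 0.12, 0.07 and 0.07, and edgeR gave each an adjusted p of 0.993. Grin3b ran from 3.17 through 4.00 to 6.19 CPM in Control, from 3.02 through 4.06 to 5.97 in Dehydrated and from 2.68 through 3.79 to 5.51 in Rehydrated. Grik1 ran from 62.2 through 73.5 to 81.9 CPM, from 60.9 through 68.3 to 80.7 and from 51.0 through 74.7 to 83.7. The treatment groups overlapped for both genes. The level was higher in males for 10 of 35 genes, and for 20 without Control M01, which is labelled male. In this comparison the 95% interval lay inside 2-fold for all 35 genes and for 95.5% of all genes tested.

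The response to dehydration was also compared between the sexes. None of the 35 genes was called for a sex difference by edgeR's quasi-likelihood test, nor was any of all genes (0%). DESeq2 called 0 of the 35 and 0.0114% of all genes (2 of 17558). None was at an unadjusted p under 0.05 in either tool, against 6.05% of all genes in edgeR. The smallest p were those of Gabra4, Grm8 and Grin2c, at log2 differences of 0.58, -0.30 and 1.17 with SEs of 0.30, 0.17 and 0.67. Over 41 alternative fits these differences ran from 0.32 to 0.72, from -0.50 to -0.22 and from 0.81 to 1.41. Control M01, the lowest of all 29 libraries for Gabra4 and Grin2c, is labelled male and so enters the male Controls. Grm8, a presynaptic autoreceptor, ran from 19.95 through 26.5 to 34.1 CPM in Control and from 21.6 through 25.1 to 32.03 in Dehydrated. A positive value stands for a larger rise in males, and 25 of 35 genes had one, against 12 without Control M01.

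Beyond the receptors, the lists of genes that make, carry or anchor GABA and glutamate signals were read for the same comparisons. In Dehydrated against Control, none of 9 genes of GABA synthesis, transport and breakdown, 15 of glutamate synthesis and uptake, 21 of inhibitory synapse scaffolds, 26 of excitatory synapse scaffolds, 23 of AMPA and kainate auxiliary subunits and 6 of glycine receptors and transporters was called. Their median log2 differences were 0.11, 0.11, 0.06, 0.08, 0.03 and 0.02, and without Control M01 they were 0.04, 0.07, 0.04, 0.01, 0.02 and -0.04. None was called in Rehydrated against Control or in Rehydrated against Dehydrated either. At an unadjusted p under 0.05, 3 of all the genes on these lists stood in the first comparison, where 6.37% of all genes tested did in edgeR. In Rehydrated against Control, Slc1a6, a glutamate transporter, had a log2 difference of -0.53 with an adjusted p of 0.571 in edgeR, and Dlg1, a scaffold of glutamate synapses, one of 0.18 with an adjusted p of 0.576.

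The one with the smallest p was NPTXR, the neuronal pentraxin receptor, which takes part in clustering AMPA receptors at synapses. It ran from 53.1 through 118 to 140.3 CPM in Control, from 128 through 146 to 205 in Dehydrated and from 103 through 123 to 160.3 in Rehydrated. The log2 difference between Dehydrated and Control was 0.43 (SE 0.11, edgeR adjusted p 0.254), and 0.36 without Control M01. Between Rehydrated and Dehydrated it was -0.26 (SE 0.12, edgeR adjusted p 1.00). Srr, which makes the NMDA receptor co-agonist D-serine, had a log2 difference of 0.24 (adjusted p 0.741 in edgeR), and Dao, which breaks D-serine down, one of -0.87 (0.713). Gad1, which makes GABA, was at 0.17 with an adjusted p of 0.807 in edgeR, and Abat, which breaks GABA down, at 0.22 (0.793).

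The 9 further receptor subunits tested, which the authors left unnamed or which the rule does not cover, had a median log2 difference of 0.16 in Dehydrated against Control, and 0.11 without Control M01, with none called. Gabre, the epsilon subunit, had the smallest p (log2 difference 0.34, adjusted p 0.787 in edgeR). Gabbr2, the partner of Gabbr1, ran from 58.7 through 183 to 213 CPM in Control, from 178 through 198 to 214 in Dehydrated and from 152 through 192 to 214 in Rehydrated.

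Of 7 markers of magnocellular neurons, Avp, Oxt and Pdyn among them, edgeR called 3 higher in Dehydrated than in Control. Of all genes tested 0.125% were called there. Without Control M01 it called 2 of the markers, and 17 of all 17545 genes tested. It called 0 of the markers in Rehydrated against Control or against Dehydrated, with 0% and 0.0228% of all genes. The sum of the 7 markers ran from 2544 through 3751 to 5536 CPM in Control, from 4162 through 6829 to 10632 in Dehydrated and from 2252 through 5221 to 7401 in Rehydrated. More RNA of these genes per cell and more such cells in a punch cannot be told apart. The sum of 6 oligodendrocyte markers had medians of 3765, 2754 and 3076 CPM, and that of 9 astrocyte markers 3349, 3450 and 3039. The sum of 2 blood markers had medians of 202, 56.4 and 171 CPM. Its genes had a median log2 difference of -1.55 in Dehydrated against Control, both at an unadjusted p under 0.05 and neither called. All 7 endothelial markers had a lower level in Dehydrated than in Control, with a median of -0.06 and 0 called. The part of cell make-up in the receptor levels was not tested.

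The authors' deposited tables give their own log2 fold changes for the same genes. By their headers each of the authors' deposited tables covers 28 libraries rather than 29, and no column bears the name of Control M01. In the authors' deposited table for Dehydrated against Control, 46 of 17583 genes had an adjusted p under 0.05 and 0 of the 35 receptor genes had, with 2 at an unadjusted p under 0.05. The smallest adjusted p among the 35 in that authors' deposited table was 0.701. In the authors' deposited table for Rehydrated against Control, 4 genes passed, 0 of the 35 among them, and the smallest adjusted p of the 35 was 0.494. The median log2 fold changes of the 35 genes in the authors' deposited tables were 0.02 and -0.02. DESeq2 fitted here without Control M01 also gave medians of 0.02 and -0.02.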

How the data were processed

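Polyadenylated RNA of 29 libraries was analysed. The deposited table holds gene-level read counts. Per the file headers, the authors ran featureCounts 1.6.2 and set no strand option. The submitters' processing notes also list FastQC and DESeq2. Which aligner was used is not stated in those sources. The authors' deposited comparison tables hold log2 fold changes and p-values, and 56 per-library columns in them (28 per table) were not used. Testing used edgeR 4.0.16 (R 4.3.3, limma 3.58.1): filterByExpr kept 17558 genes and removed 11612, which held 0.126% of counts, scaling was TMM, and the robust quasi-likelihood model held treatment and the sex label, with 25 residual degrees of freedom. The sex difference of the response came from 6 cells of treatment by sex. P-values were adjusted over all genes tested by the Benjamini-Hochberg method, with a threshold of 0.05. The scripts were tested on simulated data. DESeq2 1.42.0, sva 3.50.0, other scalings and filters, the covariates and the libraries in the fit were varied as alternatives. Tables and plots used Python 3.11.15, numpy 2.4.6, pandas 2.3.3, scipy 1.17.1 and matplotlib 3.10.9.

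Genes without a symbol from the authors took one from RefSeq (mJacJac1) where spans overlapped by at least 0.5 (5594 genes). Where both names existed, 96.6% of 8787 were the same. For 3 libraries the sex label differs from the letter of the name, and the label was used. Values by library are given for the 3 genes with the smallest p in each comparison and for the highest gene of each family, and for other lists the genes past the threshold or else those with the smallest p. Results for 4 of the 35 genes are not reported here by name, though counts and sums over the 35 include them. The genes and lists were chosen with earlier results of these data known. No 2 libraries of a group agreed within counting error: the chi-square per degree of freedom ran from 8.73 to 158 over 126 pairs.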

Additional observations from a re-analysis of the deposited data

Results flagged for a closer look

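Within groups of 9 or 10 libraries, 123 sets of values were checked for a single library whose gap to the nearest other one was large against the range of its group. Taken singly, a set has such a gap by chance in about 1 in 20 cases. The sets share their libraries, and the sums hold the single genes, so their number cannot be set against that rate. Of the 123 sets 17 had such a gap. Control M01 was the low library in 15 of them. In CPM these were Gabra3 (81.2), Gabrb2 (13.2), Gabrg3 (6.66), Gria2 (96.1), Gria3 (15.8), Grik4 (12.7), Grin3a (21.9) and Grm7 (44.9).

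In summed CPM per kilobase, Control M01 stood apart for the alpha subunits (108), AMPA (96.7), kainate (65.7) and metabotropic receptors (61.0), all GABA-A genes (239.9), all ionotropic glutamate receptor genes (269) and all 35 genes (737). The other 2 values were Grin2c in Rehydrated F05, the highest of its group at 11.1 CPM, and the AMPA sum in Dehydrated M06, the lowest at 182 CPM per kilobase.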

How the results depend on the processing

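None of the 35 genes was called in any of the 5 comparisons under 47, 47, 47, 43 and 42 alternatives (in the order of the report), and the smallest adjusted p were 0.344, 0.262, 0.479, 0.458 and 0.406. All counts of alternatives, here and above, hold the edgeR fit without Control M01 both on its own and among the libraries left out in turn. Leaving out each library in turn moved the median log2 difference from 0.02 to 0.11 in Dehydrated against Control, from -0.02 to 0.11 in Rehydrated against Control, from -0.04 to 0.001 in Rehydrated against Dehydrated, from -0.06 to 0.01 in male against female and from -0.02 to 0.15 for the sex difference of the response. Control M01 gave the low end of the first, second and last ranges and the high end of the fourth. With the replicate block, 0 of the 35 genes were called in each comparison, and 21 rather than 14 were higher in Rehydrated than in Dehydrated. With 2 surrogate variables, 13 rather than 25 were higher in Dehydrated than in Control and 20 rather than 10 in males. For the sex difference of the response, 11 rather than 25 had a positive value. The numbers do not pair the libraries: over 19 same-numbered pairs the correlations of their deviations ran from -0.13 to 0.12, 1 was over 0.1, and 2 of 23 libraries correlated best with their own number. Leaving out both Control M01 and Control F03, an alternative chosen after seeing the data, also gave 0 calls. Shares computed from counts with no length scaling moved by more than 1 SD in 21 of 87 cases. Low counts limit what can be said of Gabrd, Grin2c and Grm6.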
